A study of Mus musculus with 6 samples.

Results

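The genes described here charge transfer RNAs with amino acids or supply the amino acids themselves, and they were measured by RNA sequencing in rib chondrocytes, the cells that make cartilage. They were chosen by gene symbol from the deposited table: 20 cytosolic aminoacyl-tRNA synthetases and 20 enzymes and carriers of amino acid supply. All 40 were found, out of 27734 genes, each on 1 row. The cells came from E18.5 mouse embryos and were taken straight after digestion of the ribs, without culture. There were 3 wild-type libraries and 3 mutant libraries, the latter labelled Jab1flox/flox; Col2a1-Cre (cKO), in which Cre recombinase is made under the Col2a1 promoter and removes floxed Jab1 in cells that have used that promoter. The labels name no alleles for the wild-type embryos, nor do they tell whether the libraries are from separate embryos. The p-values below thus rest on a spread that could be partly or, within wild type, wholly technical. The comparison asks which of these genes change when chondrocytes lose Jab1, which is encoded by Cops5 and is the COP9 signalosome subunit that takes Nedd8 off cullins.

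Aminoacyl-tRNA synthetases join each amino acid to its transfer RNA, the step that precedes its use by the ribosome. In animal cells a subset of them sits in 1 large assembly, the multisynthetase complex, held together by scaffold proteins. Serine, glycine, proline and the one-carbon units carried by folate can be made in the cell from glucose and glutamate, while other amino acids enter through membrane carriers. When amino acids are short or unfolded proteins collect in the endoplasmic reticulum, the transcription factor ATF4 is made and binds many synthetase, serine pathway and carrier genes. Chondrocytes secrete large amounts of collagen, a protein rich in glycine and proline.

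Expression is given in FPKM as deposited, a unit that corrects for the length of the gene model and the number of mapped fragments, so levels can be compared between genes. Differences between mutant and wild type were fitted by limma on log2(FPKM + 1) over all genes averaging 1 FPKM or more. Rose and fell are used where the Benjamini-Hochberg adjusted p was under 0.05. Libraries are named by the number of their column, 0, 1 or 2. Column totals were 571180 to 631534 FPKM, and read depth was not analysed here. Cops5 measured 42.3, 39.8 and 40.1 FPKM in wild-type columns and 17.0, 18.01 and 17.2 FPKM in mutant columns 0, 1 and 2 (log2 fold change -1.18, SE 0.0599, limma adjusted p = 6.5e-04).

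The libraries differed in more than genotype. The title of wild-type column 0 carries a later date than those of the other 5 libraries, and the labels do not say what the date marks. The Y-linked gene Ddx3y was at 0.157, 0.0281 and 0.45 FPKM in wild-type columns 0, 1 and 2 and at 7.78, 46.1 and 36.0 FPKM in the mutant ones. Xist, also sex-linked, was at 63.1, 64.6 and 65.9 FPKM in wild-type columns and at 37.3, 0.0176 and 0.0244 FPKM in mutant columns 0, 1 and 2. For both genes mutant column 0 lay between the wild-type libraries and the other mutant libraries, and it held RNA of both Xist and Ddx3y. The groups did not overlap for either gene, so genotype and the sex of the embryos cannot be told apart. The summed level of 11 chondrocyte markers was 10996 to 12859 FPKM in wild type, 12074 FPKM in mutant column 0 and 7756 and 7459 FPKM in mutant columns 1 and 2, with none of the 11 at 0 in any library. Single markers differed in mutant column 0: Acan, Col11a2, Matn1 and Hapln1 were above every wild-type library, and Comp, Matn3, Sox9 and Lect1 below. Of the 11, Comp and Matn3 fell (limma adjusted p = 0.024 and 0.045) and none rose. Summed levels in wild-type against mutant libraries were 65.2 to 191 against 0.891 to 7.01 FPKM for 6 granulocyte markers, 196 to 221 against 14.9 to 49.4 FPKM for 7 erythroid markers, and 141 to 171 against 50.9 to 73.3 FPKM for 8 skeletal muscle markers. The muscle sum was mostly Tnnt3, a troponin (123 to 162 against 41.6 to 63.5 FPKM), and for each of the other 7 muscle markers the groups overlapped. In mutant columns 1 and 2, 2 of the 6 granulocyte markers were at 0, and in mutant column 0, 1 of the 7 erythroid markers was. For 8 macrophage and osteoclast markers the sums were 65.2 to 101 FPKM in wild type and 79.7 to 282 FPKM in mutant libraries. The high mutant sums were mostly Ctsk and Acp5, which osteoclasts express strongly (186 and 67.0 FPKM in mutant column 2), while Ptprc, the marker of all white blood cells, was lower in every mutant library (0.227 to 0.626 against 1.37 to 2.76 FPKM, limma adjusted p = 0.069). For 9 fibroblast and perichondrium markers the sums were 822 to 1139 and 732 to 1166 FPKM, and of these markers Dcn alone passed, as lower (limma adjusted p = 0.040). The sums of 5 osteoblast markers (51.0 to 155 and 31.8 to 197 FPKM) and 5 endothelial markers (2.49 to 4.34 and 1.37 to 9.97 FPKM) overlapped between the groups. The part of these differences in the results below was not tested, beyond a fit that had the Y-linked level as a covariate. Wild-type libraries hardly differed in that level, so its slope came mostly from mutant column 0 against mutant columns 1 and 2. That fit cannot tell sex and genotype apart. In bulk samples, fewer cells of a type and less RNA per cell cannot be told apart.

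Of the 40 genes, 39 passed the filter on low values, and 2 of them changed. Glul, glutamine synthetase, rose in the mutant chondrocytes, and Pycr1, the mitochondrial enzyme of the last step of proline synthesis, fell. The remaining 37 did not pass, all 20 synthetases among them. Over all 14012 genes tested, 6.07% passed, with 3.48% higher and 2.59% lower. The genes tested include 89 at 0 in every wild-type library with a mutant mean of at least 10 FPKM, whose wild-type estimates may have failed. The median log2 fold change of the 39 genes was 0.09, against -0.0039 over all genes tested, and 29 of the 39 had a positive and 10 a negative fold change. The groups did not overlap for 13 of the 39 genes, 11 of them higher and 2 lower in the mutant, beside 32.2% of the genes tested, 16.3% with the mutant group higher and 15.9% with it lower.

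**Figure D1:**
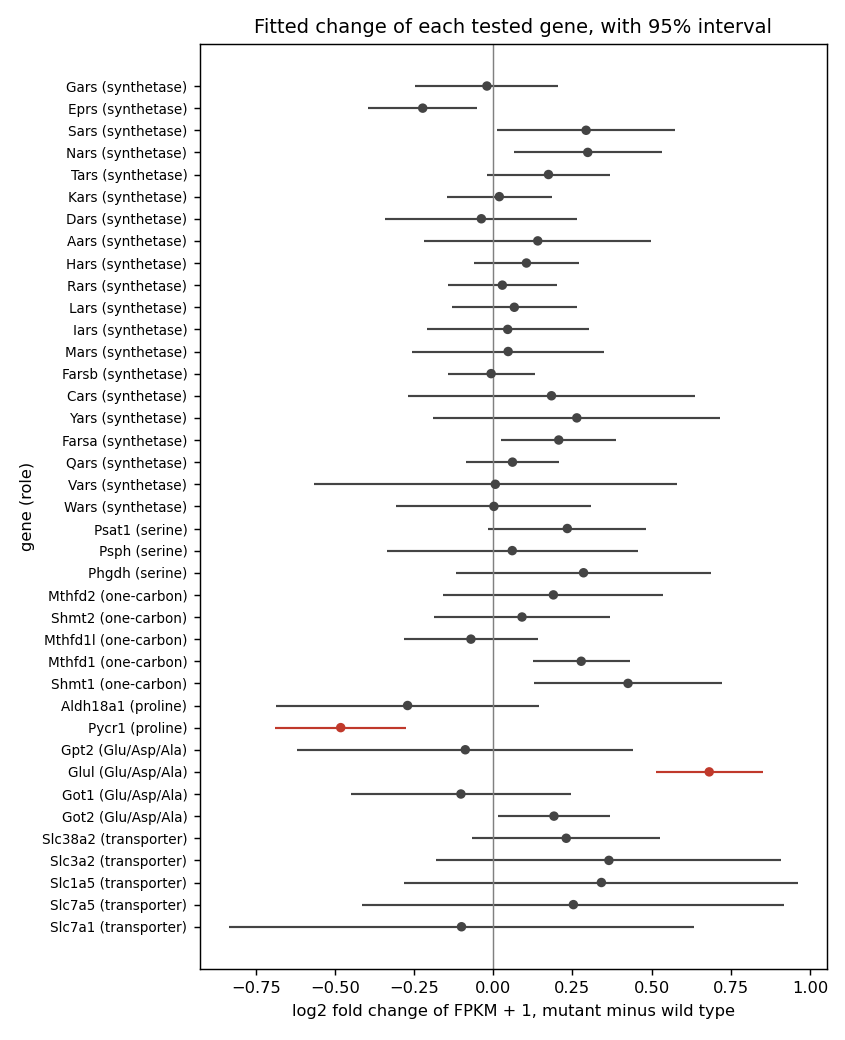
Fitted log2 fold change of FPKM + 1 (mutant minus wild type, x axis) of each of the 39 tested genes (y axis, with its role), with its 95% interval from limma as a line, not adjusted for the number of genes. Glul at 0.68 and Pycr1 at -0.48, the genes with an adjusted p under 0.05, are drawn in red, and the widest intervals belong to carriers.

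Glul (chromosome 1, 153899944 to 153909723, mm10) encodes the enzyme that makes glutamine from glutamate and ammonia. It measured 11.1, 12.1 and 12.6 FPKM in wild-type columns 0, 1 and 2 and 19.3, 19.5 and 20.3 FPKM in mutant columns 0, 1 and 2. Each mutant library was above each wild-type library, and the mutant libraries lay close together. The means were 11.9 ± 0.762 and 19.7 ± 0.513 FPKM (SD, n = 3), a 1.65-fold difference (log2 fold change 0.68, SE 0.0684, limma adjusted p = 0.0088). Glul passed without each library in turn, but not when the Y-linked level was a covariate, where its log2 fold change was 0.61 (adjusted p = 0.17).

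Pycr1 (chromosome 11, 120635712 to 120643769, mm10) encodes pyrroline-5-carboxylate reductase, which makes proline. It was at 69.0, 69.8 and 62.8 FPKM in wild-type columns 0, 1 and 2 and at 52.2, 45.4 and 46.0 FPKM in mutant columns 0, 1 and 2. All mutant libraries were below all wild-type libraries. The means of 67.2 ± 3.82 and 47.9 ± 3.71 FPKM (SD, n = 3) gave a ratio of 0.713 (log2 fold change -0.48, SE 0.0837, limma adjusted p = 0.035). The call was lost without wild-type columns 0, 1 and 2 and mutant columns 1 and 2 (adjusted p = 0.12, 0.12, 0.093, 0.097 and 0.12), without the filter on low values (adjusted p = 0.052), and when the Y-linked level was a covariate, where the log2 fold change was -0.17 (adjusted p = 0.60).

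The stretches of 250 bases before the start sites of these genes are shown because they are the changed genes of the group, 1 in each direction. They are taken from the RefSeq promoter table (GRCm38.p6), on the strand of each gene, with matches to TGATGNAA in capitals. TGATGNAA is the core of the element bound by dimers of ATF4 and C/EBP factors, and it was searched on both strands, so that it can also read TTNCATCA. The stretch of Pycr1 holds 1 match, whose first base lies 103 bases before the start site, and that of Glul holds none.
Glul, chr1:153899679-153899928, plus strand: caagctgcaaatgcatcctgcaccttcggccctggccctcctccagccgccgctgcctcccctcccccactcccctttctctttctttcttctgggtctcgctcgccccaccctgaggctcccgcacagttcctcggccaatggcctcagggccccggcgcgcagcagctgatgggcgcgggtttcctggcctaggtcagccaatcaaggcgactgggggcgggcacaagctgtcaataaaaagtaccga
Pycr1, chr11:120643749-120643998, minus strand: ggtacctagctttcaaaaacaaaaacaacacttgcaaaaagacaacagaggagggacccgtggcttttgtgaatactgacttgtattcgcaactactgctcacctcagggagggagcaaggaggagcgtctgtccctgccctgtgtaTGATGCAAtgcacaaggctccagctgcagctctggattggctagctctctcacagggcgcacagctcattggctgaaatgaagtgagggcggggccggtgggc

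The other genes of proline and glutamate metabolism were each read beside these. Aldh18a1, which encodes the enzyme that turns glutamate into the precursor of proline, measured 79.9, 79.8 and 65.8 FPKM in wild-type columns and 78.4, 56.4 and 53.5 FPKM in mutant columns 0, 1 and 2. Mutant column 0 lay among the wild-type libraries and mutant columns 1 and 2 below them all, and the gene did not pass (log2 fold change -0.27, SE 0.169, limma adjusted p = 0.38). Prodh, which breaks proline down in mitochondria, was the gene that did not pass the filter, at 0.163 to 0.517 FPKM in wild-type columns and 0.356 to 0.872 FPKM in mutant libraries. Pycrl, another pyrroline-5-carboxylate reductase and not among the 40, measured 16.5 ± 1.92 and 18.4 ± 1.36 FPKM (SD, n = 3, limma adjusted p = 0.44). Aldh4a1, which takes the breakdown of proline on to glutamate, measured 1.51 ± 0.288 and 2.62 ± 0.405 FPKM with groups that did not overlap (adjusted p = 0.097).

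On the side of glutamate, Glud1, glutamate dehydrogenase, was at 38.7 ± 0.949 and 44.7 ± 2.27 FPKM with groups that did not overlap (SD, n = 3, limma adjusted p = 0.13). Got2, the mitochondrial aspartate aminotransferase, measured 10.3, 10.9 and 10.3 FPKM in wild-type columns and 12.5, 11.2 and 12.8 FPKM in mutant columns 0, 1 and 2. Its groups did not overlap, though mutant column 1 came close to wild type, and it did not pass (log2 fold change 0.19, SE 0.0717, adjusted p = 0.18). Got1, the cytosolic counterpart, was at 13.5 ± 1.72 and 12.5 ± 2.04 FPKM (adjusted p = 0.69). Gpt2, the mitochondrial alanine aminotransferase, measured 41.3, 39.8 and 31.8 FPKM in wild-type columns and 48.3, 30.1 and 29.7 FPKM in mutant columns 0, 1 and 2 (adjusted p = 0.84). Its mutant libraries thus held both the highest value of the 6 and the lowest ones.

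**Figure D2:**
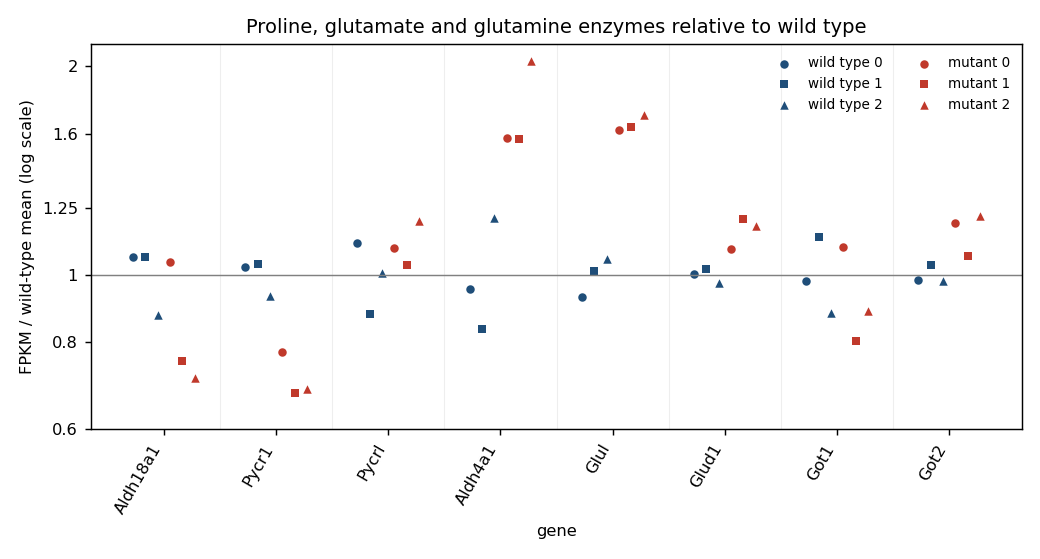
FPKM of proline, glutamate and glutamine enzymes in each library divided by the wild-type mean of the gene (y axis, log scale), with wild-type libraries in blue and mutant libraries in red. For Glul all mutant points lie above all wild-type points (19.3 to 20.3 against 11.1 to 12.6 FPKM), and for Pycr1 all lie below (45.4 to 52.2 against 62.8 to 69.8 FPKM).

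None of the 20 synthetases changed in limma. At an unadjusted p under 0.05, 3 were higher (Nars, Farsa and Sars) and 1 was lower (Eprs), 4 of 20 beside 24.7% of all genes tested. Their median log2 fold change was 0.05, and single values ran from -0.22 to 0.30. The libraries varied little for these genes: the highest library was 1.26 times the lowest at the median synthetase, against 1.53 times at the median of all genes tested, whose median level was lower (9.02 against 48.0 FPKM).

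Gars, which charges glycine, and Eprs, a single protein that charges glutamate and proline, had the highest levels of the 20. Gars measured 187, 173 and 164 FPKM in wild-type columns and 188, 165 and 164 FPKM in mutant columns 0, 1 and 2. The groups overlapped throughout, and the 95% interval of its log2 fold change reached from -0.25 to 0.21 (limma adjusted p = 0.92). Eprs was at 161, 163 and 150.4 FPKM in wild-type columns and at 136, 139 and 130.4 FPKM in mutant columns 0, 1 and 2. Every mutant library was below every wild-type library, but the gene did not pass (log2 fold change -0.22, SE 0.0695, adjusted p = 0.12).

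Below them came Sars, which charges serine and selenocysteine transfer RNAs, and Nars, which charges asparagine. Nars measured 92.1, 95.5 and 88.8 FPKM in wild-type columns and 128, 105 and 109 FPKM in mutant columns 0, 1 and 2. The groups did not overlap and mutant column 0 was the highest library (log2 fold change 0.30, SE 0.0947, limma adjusted p = 0.13). Sars was at 119, 113 and 93.3 FPKM in wild-type columns and at 143, 127 and 127 FPKM in mutant columns (adjusted p = 0.19), again without overlap. Tars, for threonine, with 79.4 ± 2.79 and 89.8 ± 6.78 FPKM (SD, n = 3), and Farsa, the alpha subunit of the phenylalanine enzyme, with 25.5 ± 1.44 and 29.6 ± 1.61 FPKM, also had higher mutant groups that did not overlap wild type (adjusted p = 0.24 and 0.16). Farsb, the beta subunit of the same enzyme, had the narrowest spread of the 20, at 36.8, 36.9 and 35.9 FPKM in wild-type columns and 36.2, 35.6 and 37.4 FPKM in mutant columns.

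**Figure D3:**
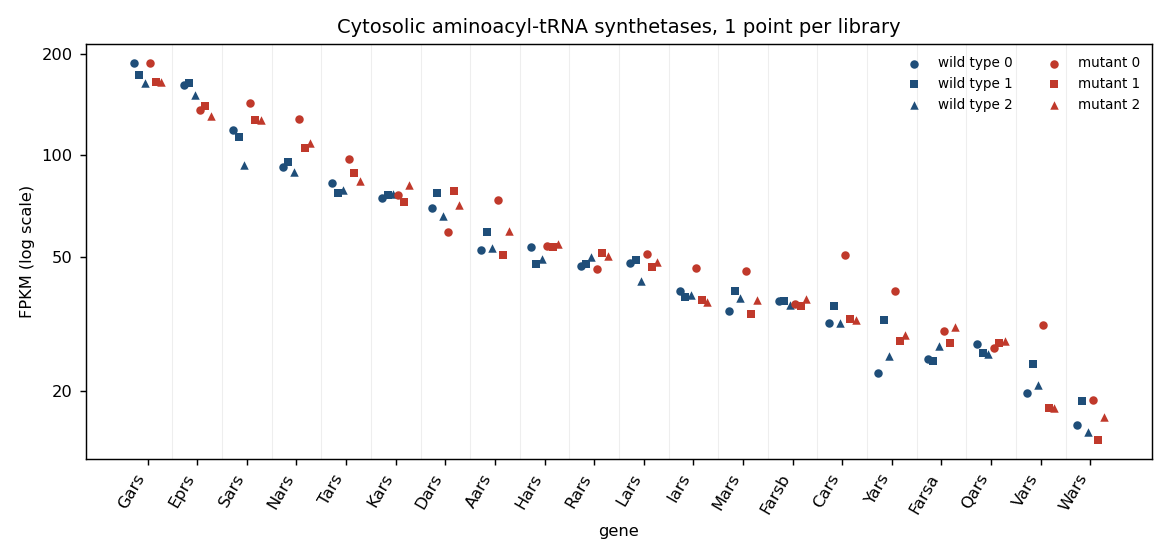
FPKM (y axis, log scale) of the 20 cytosolic synthetases in each of the 6 libraries, ordered by mean level, with wild-type libraries in blue and mutant libraries in red. Levels run from Gars at 164 to 188 FPKM to Wars at 14.3 to 18.7 FPKM, and mutant column 0 stands above the other libraries for Cars, Yars and Vars.

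The 8 synthetases of the multisynthetase complex (Dars, Eprs, Iars, Kars, Lars, Mars, Qars and Rars) were set beside the other 12, a split made after the values were known and given without a test. Median log2 fold changes were 0.04 in the complex and 0.16 outside it. Outside the complex, 9 of 12 genes had their highest value in mutant column 0, against 3 of 8 in the complex. Kars, for lysine, measured 75.7 ± 1.001 and 76.8 ± 4.296 FPKM, and Qars, for glutamine, 26.4 ± 0.985 and 27.5 ± 0.663 FPKM (SD, n = 3). Dars (aspartate) lay between 59.2 and 78.3 FPKM over the 6 libraries, Rars (arginine) between 45.9 and 51.2, Lars (leucine) between 42.4 and 51.0, Iars (isoleucine) between 36.7 and 46.3, and Mars (methionine) between 33.8 and 45.3 FPKM. Outside the complex, Hars (histidine) lay between 47.5 and 54.3 FPKM and Wars (tryptophan) between 14.3 and 18.7 FPKM. The groups overlapped for each of these 7 genes. Of the scaffold proteins, none of 3 passed. Aimp1 measured 43.5 ± 2.92 and 43.0 ± 2.56 FPKM, Aimp2 24.7 ± 1.04 and 25.4 ± 1.17 FPKM, and Eef1e1 28.4 ± 3.57 and 33.6 ± 0.567 FPKM (limma adjusted p = 0.93, 0.76 and 0.21).

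For Cars, Vars, Yars and Aars 1 mutant library set the mutant mean. Cars, for cysteine, measured 31.7, 35.7 and 31.8 FPKM in wild-type columns and 50.4, 32.7 and 32.3 FPKM in mutant columns 0, 1 and 2. Vars, for valine, was at 19.7, 23.9 and 20.7 FPKM in wild-type columns and at 31.3, 17.8 and 17.7 FPKM in mutant columns. In mutant column 0 both were above every other library, while the other mutant libraries were within the wild-type range for Cars and below it for Vars. Yars, for tyrosine, reached 39.6 FPKM and Aars, for alanine, 73.6 FPKM in mutant column 0, with no other library above 32.4 and 59.4 FPKM. None of these 4 passed (limma adjusted p = 0.43 to 0.99).

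None of the 3 enzymes that make serine from a glycolytic intermediate passed. Psat1, the aminotransferase of the pathway, measured 68.6, 62.1 and 66.7 FPKM in wild-type columns and 87.5, 69.7 and 76.4 FPKM in mutant columns 0, 1 and 2. Its groups did not overlap (log2 fold change 0.23, SE 0.101, limma adjusted p = 0.22). Phgdh, the first enzyme, was at 12.1, 11.5 and 10.8 FPKM in wild-type columns and at 17.7, 11.1 and 14.5 FPKM in mutant columns (adjusted p = 0.34). Psph, the last enzyme, measured 37.1, 29.3 and 33.7 FPKM in wild-type columns and 41.9, 28.5 and 34.8 FPKM in mutant columns (adjusted p = 0.85). For all 3 enzymes mutant column 0 was the highest library of the 6, and mutant column 1 was the lowest of the mutant libraries.

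Among the 5 enzymes of one-carbon metabolism, which move single carbons from serine onto folate, none passed either. Those of the cytosol were higher in every mutant library. Mthfd1, the cytosolic enzyme that interconverts folate forms, measured 25.9, 24.7 and 25.5 FPKM in wild-type columns and 30.2, 30.1 and 32.6 FPKM in mutant columns 0, 1 and 2 (log2 fold change 0.28, SE 0.0622, limma adjusted p = 0.060), and it passed with library weights (adjusted p = 0.035). Shmt1, the cytosolic serine hydroxymethyltransferase, was at 4.52, 3.23 and 3.64 FPKM in wild-type columns and at 5.23, 5.15 and 5.86 FPKM in mutant columns (log2 fold change 0.43, adjusted p = 0.10). For both, the groups did not overlap and the mutant libraries lay close together.

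The mitochondrial enzymes of the same steps had overlapping groups. Shmt2 measured 78.1, 78.7 and 65.5 FPKM in wild-type columns and 88.1, 72.4 and 76.5 FPKM in mutant columns 0, 1 and 2 (limma adjusted p = 0.66). Mthfd2, which oxidises the folate-bound carbon, was at 82.6, 77.2 and 71.4 FPKM in wild-type columns and at 107, 75.7 and 84.0 FPKM in mutant columns (adjusted p = 0.46). Mthfd1l, which releases formate, measured 29.9 ± 2.77 and 28.4 ± 1.18 FPKM (SD, n = 3, adjusted p = 0.65). Shmt2 was present at many times the level of Shmt1, 74.1 ± 7.45 against 3.80 ± 0.661 FPKM in wild type.

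None of the 5 carriers passed, and all 5 had their highest value in mutant column 0. Slc7a5 and Slc3a2 together form the exchanger of large neutral amino acids, with Slc3a2 as the chaperone subunit that other carriers also use. Slc3a2 measured 87.2, 87.3 and 74.3 FPKM in wild-type columns and 151, 87.5 and 92.4 FPKM in mutant columns 0, 1 and 2 (log2 fold change 0.37, SE 0.221, limma adjusted p = 0.37). Slc7a5 was at 27.1, 31.1 and 24.7 FPKM in wild-type columns and at 51.0, 26.6 and 26.4 FPKM in mutant columns (log2 fold change 0.25, SE 0.270, adjusted p = 0.60). In mutant column 0 these partners were 1.63 and 1.64 times the next highest library, and in mutant columns 1 and 2 Slc7a5 lay within the wild-type range and Slc3a2 just above it. When the Y-linked level was a covariate both passed, with log2 fold changes of 1.56 and 1.73 (adjusted p = 0.038 and 0.039), while without mutant column 0 the values were 0.12 and -0.05 (adjusted p = 0.49 and 0.79).

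The other carriers showed the same high library. Slc38a2, which takes up small neutral amino acids with sodium, measured 141, 148 and 144 FPKM in wild-type columns and 202, 160 and 152 FPKM in mutant columns 0, 1 and 2 (limma adjusted p = 0.30). Slc1a5, the glutamine carrier, was at 50.8, 68.1 and 40.0 FPKM in wild-type columns and at 86.9, 54.0 and 60.7 FPKM in mutant columns (adjusted p = 0.46). Slc7a1, the carrier of arginine and lysine, measured 16.2, 25.0 and 20.3 FPKM in wild-type columns and 29.3, 15.2 and 14.7 FPKM in mutant columns (adjusted p = 0.87). Groups overlapped for Slc1a5, Slc7a1 and Slc7a5 but not for Slc38a2 and Slc3a2.

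**Figure D4:**
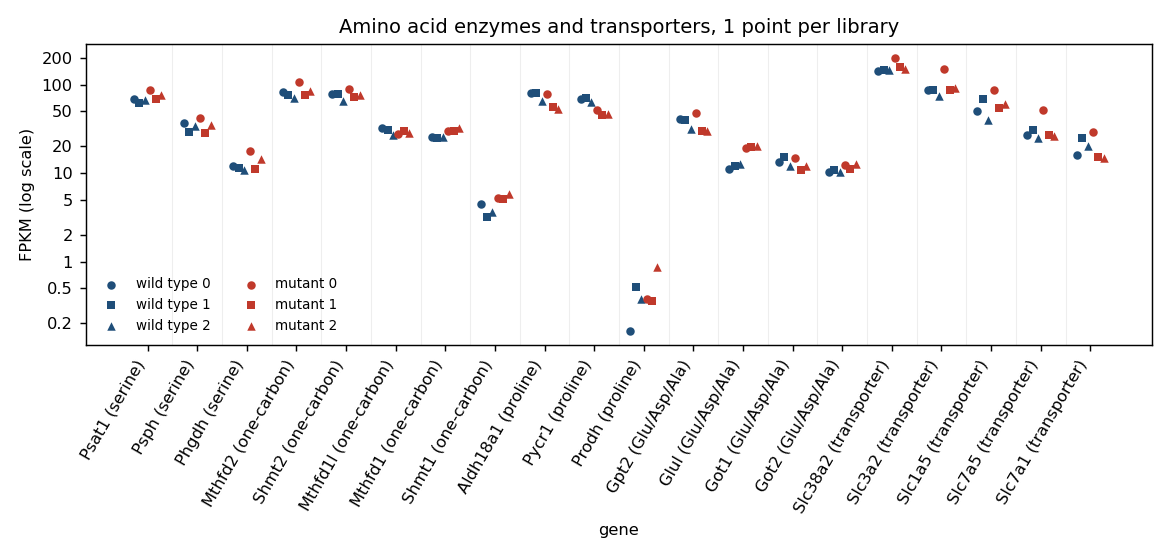
FPKM (y axis, log scale) of the 20 amino acid enzymes and carriers in each of the 6 libraries, grouped by role, with wild-type libraries in blue and mutant libraries in red. Slc3a2 at 151 FPKM and Slc7a5 at 51.0 FPKM in mutant column 0 stand above their other libraries, and Prodh lies under 1 FPKM in all of them.

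Read across the 39 genes, mutant column 0 stood apart. It was the highest of the 6 libraries for 23 of them (12 synthetases and 11 others), where it was the highest for 24.2% of all genes tested. In 10 of the 39 it was at least 1.2 times every other library, a bound chosen after the values were seen, beside 8.19% of all genes tested. These were Aars, Cars, Vars, Yars, Phgdh, Mthfd2, Slc1a5, Slc3a2, Slc7a5 and Slc38a2. The median deviation of the 39 genes from the wild-type mean was 0.28 in mutant column 0 on the log2(FPKM + 1) scale, against -0.015 and 0.07 in mutant columns 1 and 2 and 0.03, 0.05 and -0.05 in wild-type columns 0, 1 and 2. Without mutant column 0 the median log2 fold change of the 39 genes was 0.03, and Glul and Pycr1 still passed in limma (adjusted p = 0.023 and 0.034). Compared with the other mutant libraries, this library also had a lower Y-linked level and higher sums of chondrocyte and granulocyte markers (12074 and 7.01 FPKM). For fibroblast, osteoblast, endothelial, erythroid and muscle markers its sums were the lowest of the 6 libraries (732, 31.8, 1.37, 14.9 and 50.9 FPKM). Not every marker went with its sum. Of the fibroblast markers, Dcn and Col1a1 were lowest in this library (305 and 21.0 FPKM) and the others were not. Col3a1, Tnmd and Pdgfra (112, 8.33 and 9.44 FPKM) were above every wild-type library there. Of the muscle markers, Tnnt3 was lowest in it (41.6 FPKM), but Acta1 and Ckm (5.24 and 1.42 FPKM) were above both other mutant libraries. The sum of macrophage and osteoclast markers in mutant column 0 (79.7 FPKM) was the lowest of the mutant libraries. The part of these differences in the values of the 39 genes was not tested.

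**Figure D5:**
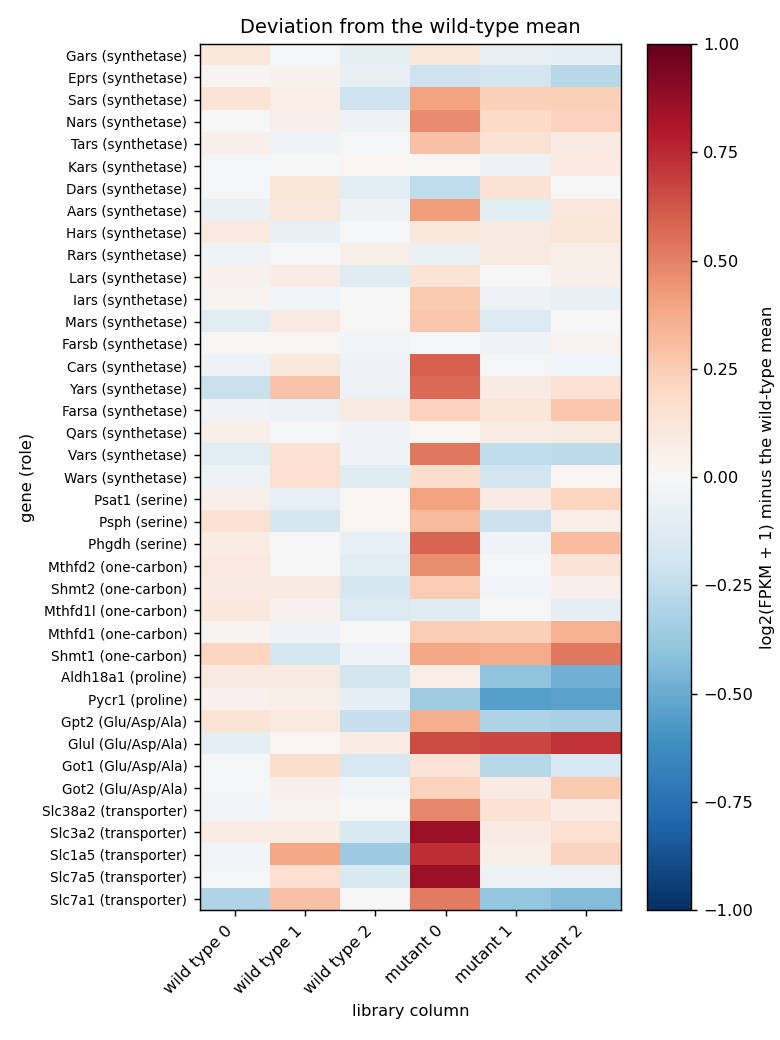
Deviation of log2(FPKM + 1) from the wild-type mean (colour, red higher and blue lower) for each of the 39 tested genes (rows, with role) in each library (columns). Mutant column 0 is red for all 5 carriers, for Cars, Vars and Yars and for the serine enzymes, while the rows of Glul (19.3 to 20.3 FPKM) and Pycr1 (45.4 to 52.2 FPKM) have like colours in all mutant libraries.

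Many genes of the response to amino acid shortage and to other cell stress had the same high library. None of 18 such genes passed in limma (unadjusted p under 0.05 in 4, of which 3 were higher and 1 lower), and 13 of the 18 were highest in mutant column 0, beside 24.7% and 24.2% of all genes tested. Atf4, the factor itself, measured 287, 276 and 259 FPKM in wild-type columns and 403, 306 and 350.0 FPKM in mutant columns 0, 1 and 2 (log2 fold change 0.36, SE 0.121, limma adjusted p = 0.15). Its groups did not overlap. Atf3, a stress-induced repressor, was at 7.91, 10.1 and 6.42 FPKM in wild-type columns and at 46.7, 9.69 and 8.32 FPKM in mutant columns, and Chac1, which degrades glutathione, at 36.4, 29.7 and 25.3 and at 58.8, 24.2 and 24.3 FPKM. Mutant columns 1 and 2 lay within the wild-type range for Atf3 and below it for Chac1, and both genes were named after their values were seen.

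The promoter table matched 30 of the 40 genes by symbol, and those not matched were Cars, Hars, Lars, Mars, Nars, Rars, Vars, Wars, Slc1a5 and Slc7a5. A match to TGATGNAA on either strand, within 250 bases before and 50 after a start site, was present in 7 of the 30 (23.3%), in 5 of 12 synthetases and 2 of 18 others, and in 4.51% of the 27025 genes of the table. The 7 were Aars, Gars, Iars, Tars, Yars, Got1 and Pycr1. A match is a run of letters and not a shown binding site. In Iars, Tars and Yars the match lay within 15 bases of the start site. Among the 7, Pycr1 fell, the other 6 did not pass, and fitted log2 fold changes ran from -0.48 in Pycr1 to 0.26 in Yars. Stretches of 30 bases before the start sites are shown with the match in capitals, since they hold it further upstream.
Got1, chr19:43524689-43524718, minus strand: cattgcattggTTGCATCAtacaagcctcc
Gars, chr6:55037960-55037989, plus strand: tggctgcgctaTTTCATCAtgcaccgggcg

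Of all genes tested, 6.07% passed in limma and 24.7% had an unadjusted p under 0.05. The wider lists of the pathway are read beside these shares. Of 16 tested synthetases of mitochondria, which serve protein synthesis inside that organelle, none passed in limma (unadjusted p under 0.05 in 2, 1 of them higher and 1 lower). Yars2, for tyrosine, was at 10.6, 10.05 and 10.7 FPKM in wild-type columns and at 12.3, 13.8 and 14.5 FPKM in mutant columns 0, 1 and 2 (adjusted p = 0.063). Its groups did not overlap.

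Of 17 other tested enzymes of amino acid metabolism 1 passed, Oat, which the table gives as 0 in each wild-type library and as 178, 171 and 181 FPKM in mutant columns 0, 1 and 2. A gene listed at 0 may be one whose estimate failed, and 89 genes of the table were at 0 in every wild-type library with a mutant mean of at least 10 FPKM, so no fold is given. Asns, asparagine synthetase and a known ATF4 target, measured 105 ± 4.85 and 117 ± 14.9 FPKM (SD, n = 3, limma adjusted p = 0.43). None of 10 other one-carbon enzymes passed in limma, with 1 at an unadjusted p under 0.05, Mat2a, which makes S-adenosylmethionine (46.9 ± 2.75 and 55.8 ± 5.86 FPKM, adjusted p = 0.19).

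Of 21 other tested amino acid carriers 1 rose, none fell and 20 did not pass. Slc1a1, a carrier of glutamate, aspartate and cysteine, measured 4.83, 4.98 and 4.75 FPKM in wild-type columns and 7.28, 6.43 and 6.92 FPKM in mutant columns 0, 1 and 2 (log2 fold change 0.43, SE 0.0713, limma adjusted p = 0.033). Every mutant library was above every wild-type library. The call was lost without each of the 6 libraries in turn (adjusted p = 0.056 to 0.12), without the filter on low values (0.072), with a filter at 5 FPKM (0.055) and when the Y-linked level was a covariate (0.15).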

How the data were processed

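The authors deposited 1 table of FPKM values for 27734 genes and 6 libraries. Per the submitters' processing notes, STAR, Cufflinks and Cuffdiff were used with mm10, and per the labels' protocols the libraries were stranded total RNA depleted of ribosomal RNA. Versions, settings and any scaling between libraries are not given in the sources used here. Columns end in 0, 1 and 2 but the descriptions in 0, 1 and 3, so the last column of each genotype was tied to its group and not to a sample.

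Values were transformed as log2(FPKM + 1), and the 14012 genes averaging 1 FPKM or more were fitted with limma 3.58.1 in R 4.3.3 (eBayes with trend), two-sided, with Benjamini-Hochberg adjustment over all of them. The fit was tested on simulated data whose planted changes were larger than any fitted for the genes described here. That test does not bear on changes of their size. The smallest p of an exact permutation test of this size is 0.1, and none was run. FPKM gives no read counts, so no counting interval is given. Coordinates come from GENCODE M21 (mm10). For 27 symbols that had become whole numbers the GENCODE name was used.

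The 40 genes and all lists were chosen with earlier results of these data known. Values per library are given for changed genes and, in each role group, for the 2 highest by mean and the 2 lowest by p; of the wider lists, changed genes or else the gene with the smallest p are named. Other genes were named after their values were seen, and some items are not reported here. Alternatives were pseudocounts of 0.1 and 0.5, quantile normalization, median-of-ratios scaling, no filter, a filter at 5 FPKM, library weights, a robust variance prior, each library left out, a replicate block and the Y-linked level (mean log2 of Ddx3y, Uty, Eif2s3y and Kdm5d) as a covariate.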

Additional observations from a re-analysis of the deposited data

How the results depend on the processing

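No synthetase passed under any of the 16 alternative settings. The 2 calls, both among enzymes and carriers, became 1 without the filter on low values and 0 with a replicate block, and 1 to 2 without each library in turn. When the Y-linked level was a covariate 2 genes rose, Slc3a2 and Slc7a5, in place of Glul and Pycr1. That fit cannot tell sex and genotype apart. Calls over all genes were 850, and 461 without the filter, 1488 with library weights, 60 with the replicate block, 236 with the Y-linked covariate and 174 to 666 without each library. Same-numbered columns did not deviate together (correlations of deviations -0.033, -0.042 and -0.023 for columns 0, 1 and 2). With 3 libraries per group this cannot show whether libraries were paired. With the block the adjusted p was 0.078 for Glul, 0.14 for Pycr1 and 0.156 for Slc1a1. The median of the 39 genes was 0.55 with the Y-linked covariate and otherwise 0.03 to 0.15.

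The fold changes whose sign turned did not pass in the setting reported above, and of these genes Slc7a5 alone passed in another, with the Y-linked covariate. With the Y-linked covariate, log2 fold changes turned to 0.29 for Gars, -0.21 for Rars, -0.024 for Qars, 0.55 for Aldh18a1, 1.01 for Gpt2, 0.50 for Got1 and 1.38 for Slc7a1. With library weights they turned to 0.069 for Dars, -0.017 for Iars, -0.049 for Mars, -0.16 for Vars, -0.038 for Wars, -0.037 for Psph and 0.0022 for Mthfd1l. With quantile normalization they turned to -0.031 for Kars, -0.019 for Rars, -0.015 for Vars and -0.018 for Wars. Without each library in turn, 14 of the 39 signs turned: -0.083 to 0.031 for Gars, -0.022 to 0.057 for Kars, -0.13 to 0.071 for Dars, -0.00094 to 0.076 for Rars, -0.061 to 0.10 for Iars, -0.069 to 0.14 for Mars, -0.026 to 0.0093 for Farsb, -0.022 to 0.29 for Cars, -0.25 to 0.14 for Vars, -0.085 to 0.10 for Wars, -0.074 to 0.20 for Psph, -0.31 to 0.028 for Gpt2, -0.054 to 0.41 for Slc7a5 and -0.41 to 0.068 for Slc7a1. The cause of these changes was not tested. Without read counts, the depth behind each value is unknown.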
